A study of Schmidtea mediterranea with 24 samples.

Results

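In a set of 24 RNA sequencing libraries from the planarian Schmidtea mediterranea, 30 of 26563 transcript contigs were higher in every myoD RNAi animal than in every control animal of the same schedule and showed little or no rise after nkx1-1 RNAi. They were chosen by measured values. A member had a mean of at least 1 CPM (its counts scaled to 1000000 counts of the library) over all 24 libraries. The log2 ratio of the myoD RNAi mean to its control mean, with 0.5 CPM added to both (called the myoD difference here), was at least 0.3. The same ratio for nkx1-1 RNAi (the nkx1-1 difference) was below 0.15. The lowest myoD RNAi library lay above the highest library of its controls. Both contrasts served to choose the members, so their values in these contrasts are a description and carry no test of their own.

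All animals were whole, uninjured planarians of strain CIW4, and each ate double-stranded RNA (dsRNA, made in vitro) mixed into liver. In the schedule of 10 feedings over 7 weeks, 6 control animals (10F_ctrol) received dsRNA matching the Caenorhabditis elegans gene unc-22, which comes from a nematode, and 6 received myoD dsRNA (10F_myoD). In the schedule of 12 feedings over 9 weeks, 5 animals received unc-22 dsRNA (12F_ctrol) and 7 received nkx1-1 dsRNA (12F_nkx1-1). Dose by feeding reaches the whole animal, so no tissue was targeted. The title, design text and tissue label describe 1 library per intact animal, while the extraction text speaks of tail wounds, and if that text held, the spread would not be one between intact animals. Each treatment has its own control, and number of feedings, weeks and cohort go with the targeted gene and cannot be told apart from it in any comparison across schedules.

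RNAi by feeding lowers the transcript of the matching gene over weeks, while planarians replace their cells continually from dividing stem cells, the neoblasts. MyoD is a transcription factor of muscle, needed in planarians for the longitudinal fibres of the body wall, and nkx1-1 encodes a homeobox factor needed for the circular fibres. Planarian muscle cells also make position-specific signals and much of the extracellular matrix. Body-wide RNA holds all tissues at once, so more cells of a type and more RNA per cell cannot be told apart here.

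Total counts were 9757113 to 18136698 per library. A pair of libraries stood apart from their groups. Replicate 3 of the 12-feeding controls lay nearer to the 10-feeding control mean (root mean square distance 0.247 log2 units over the 15382 contigs of at least 1 CPM) than to the mean of the other 12-feeding controls (0.319), while for the other 4 the former distance was 0.357 to 0.425 and the latter 0.187 to 0.227. The contig dd_Smed_v4_4_1_1 made up 6.79% of all counts in replicate 1 of nkx1-1 RNAi, while its share elsewhere was 0.0393% to 0.781%. The deposited tables pair no contig with a gene name. The level of the targeted genes, markers of muscle or of any other tissue, and the roles of the members were therefore not analysed here, and the members are given by contig ID.

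The differences of the members after myoD RNAi were small. Their myoD differences ran from 0.30 to 0.69 with a median of 0.41, against a median of −0.02 over all 15382 contigs of at least 1 CPM. The difference was at least 0.5 for 8 members, under 0.35 for 11 and in between for 11. In all, 297 contigs met the floor, the myoD bound and the no-overlap condition, and 267 of them were at or above the nkx1-1 bound. Those 267 had a median myoD difference of 0.59 and reached 2.27, and 34 of them were at 1 or more, a size that none of the 30 members had. The members are thus the 10.1% of these 297 contigs with the lowest nkx1-1 differences, where 77.3% of all contigs of at least 1 CPM were below the same bound.

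**Figure D1:**
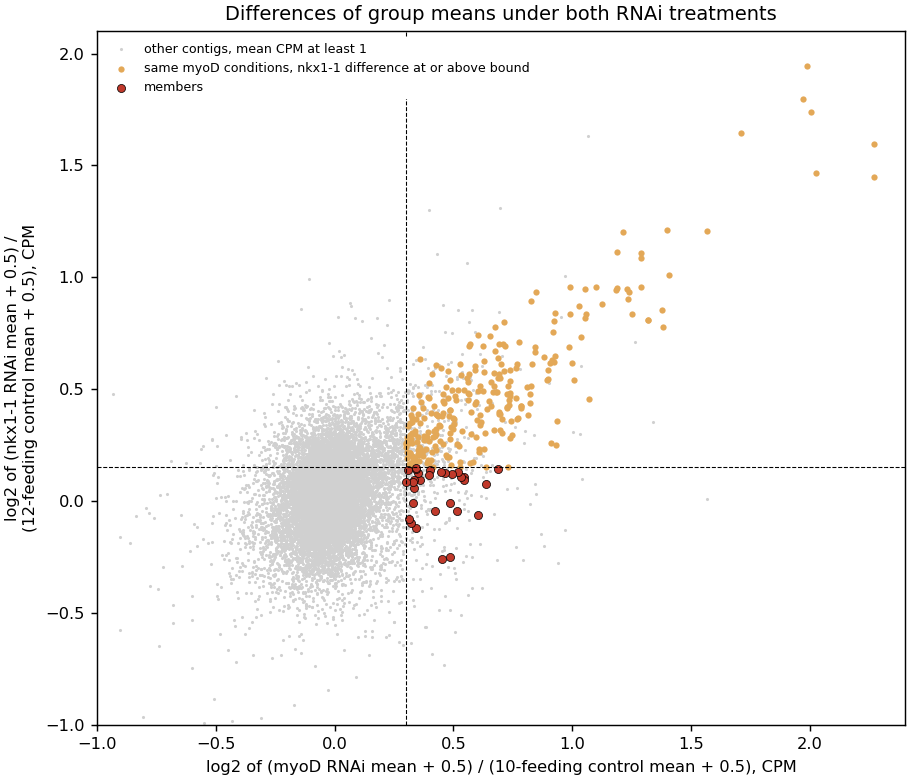
Each point is a contig of at least 1 CPM, with the myoD difference on the horizontal and the nkx1-1 difference on the vertical axis (log2 of group mean ratios with 0.5 CPM added). Dashed lines mark the bounds of 0.3 and 0.15, the 30 members lie below and to the right, and the 267 contigs that met the same myoD conditions reach much larger values on both axes. A further 28 contigs lie beyond the axes.

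The members covered a wide range of abundance, with a low median. The mean over 24 libraries was 1 to 5 CPM for 15 members, 5 to 20 CPM for 6, 20 to 100 CPM for 5 and above 100 CPM for 4. The median member stood at 5.15 CPM, against 16.1 CPM for all contigs of at least 1 CPM. For the contigs that met the same myoD conditions but not the nkx1-1 bound the median was also low, at 8.24 CPM. The lowest count of any member in any library was 9. Together the members held a share of the counts of 0.235% ± 0.0227 in the 6 controls and 0.302% ± 0.00762 in the 6 myoD RNAi animals of the shorter schedule (SD over animals). In the longer schedule the share was 0.216% ± 0.00727 in the 5 controls and 0.215% ± 0.0270 in the 7 nkx1-1 RNAi animals (SD over animals). The contig dd_Smed_v4_66_0_1 made up most of this, and without it the 4 shares were 0.0846%, 0.114%, 0.0840% and 0.0895% in the same order.

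The room between RNAi and control animals was narrow for many members, a condition of no overlap that 3.37% of all contigs of at least 1 CPM met in this direction. The lowest myoD RNAi library exceeded the highest control by a median of 4.79%, with 0.199% at the least and 21.0% at the most. It was under 5% for 16 members and at least 15% for 5. A further 196 contigs met the floor and both bounds but overlapped between the groups. With edgeR's quasi-likelihood test, 26 of the 30 members were called higher (adjusted p under 0.05), where 5.16% of the 16352 contigs tested were called in that direction, and nothing can be read from this count because the same libraries chose the members. Of the 30, 18 were under an adjusted p of 0.05 in the authors' deposited table for myoD, against 3.72% of the contigs with a value there, in either direction. In the authors' deposited table for nkx1-1, which lists all 30, the number under 0.05 was 0, against 1.65% of contigs in either direction. These tables compare the same groups that chose the members, so nothing can be read from these counts either. The 4 members that edgeR did not call were dd_Smed_v4_21173_0_1, dd_Smed_v4_9788_0_1, dd_Smed_v4_4295_0_1 and dd_Smed_v4_21882_0_1.

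The myoD RNAi animals differed little from each other in the median over the members. The median over the 30 members of the log2 ratio to the 10-feeding control mean was 0.37 to 0.41 in the 6 myoD RNAi animals. It was −0.03 to 0.05 in the 6 controls of that schedule. The highest value among myoD RNAi animals fell to replicate 3 for 9 members, to replicates 2 and 5 for 6 each, to replicates 1 and 6 for 4 each and to replicate 4 for 1. The lowest fell to replicate 5 for 9 members. In the 12-feeding schedule the same median was −0.12 to 0.09 in controls and −0.22 to 0.11 after nkx1-1 RNAi. Every library of that schedule thus lay below every myoD RNAi library by this measure. The rule chose contigs high in all myoD RNAi libraries and capped the nkx1-1 difference, so these medians are a description.

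**Figure D2:**
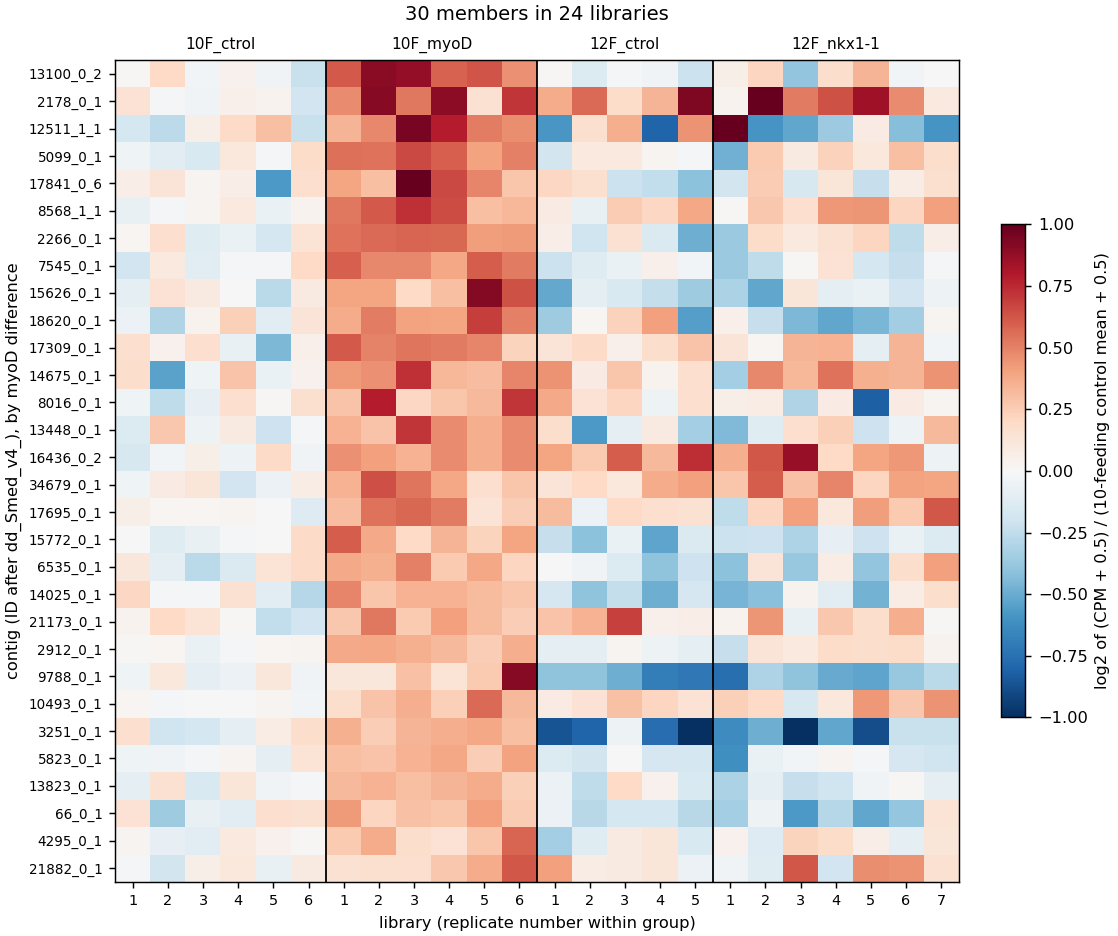
Rows are the 30 members from the largest to the smallest myoD difference and columns the 24 libraries by group; colour is the log2 ratio of a library's CPM to the 10-feeding control mean, with 0.5 CPM added, cut off at −1 and 1. All 6 myoD RNAi columns are above all 6 control columns in every row, as the rule requires, while the 12-feeding columns differ from row to row.

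The member with the largest myoD difference was dd_Smed_v4_13100_0_2. Its lowest, median and highest levels were 5.70, 6.68 and 7.80 CPM in 10-feeding controls and 9.44, 10.6 and 13.0 CPM after myoD RNAi. The means were 6.72 ± 0.679 and 11.1 ± 1.44 CPM (SD, n = 6 each), a myoD difference of 0.69, and the space between the groups was the widest of all members at 21.0% of the highest control. Controls of the longer schedule stood at 6.80, 6.06, 6.68, 6.57 and 5.71 CPM and the nkx1-1 RNAi animals at 4.98 to 8.65 CPM with a median of 7.03. Its nkx1-1 difference of 0.14 was close to the bound.

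For dd_Smed_v4_2178_0_1 the levels in 10-feeding controls were 130, 149 and 164 CPM (lowest, median and highest), and after myoD RNAi 165, 230 and 280 CPM. Its myoD difference was 0.64, but the lowest RNAi animal, replicate 5, exceeded the highest control by only 0.558%. The 12-feeding controls were at 192, 220, 169, 188 and 285 CPM, each above all 10-feeding controls and each at or above the lowest myoD RNAi animal. The nkx1-1 RNAi animals ranged from 153 to 325 CPM around a median of 214 CPM and spanned the whole range of their controls.

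The contig dd_Smed_v4_5099_0_1 was at 46.9, 51.3 and 59.5 CPM in 10-feeding controls and at 69.2, 76.7 and 83.0 CPM after myoD RNAi, a myoD difference of 0.54. The 12-feeding controls, at 46.1, 56.0, 56.1, 53.4 and 51.8 CPM, stayed within the range of the 10-feeding controls apart from the lowest. After nkx1-1 RNAi 5 of 7 animals lay above all of their controls, with values up to 64.5 CPM, none reached the lowest myoD RNAi animal, and replicate 1 was lowest at 37.2 CPM.

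The most abundant member, dd_Smed_v4_66_0_1, was at 1180, 1547 and 1695 CPM in 10-feeding controls and at 1752, 1837 and 2023 CPM after myoD RNAi (lowest, median and highest). The means of 1508 ± 207 and 1876 ± 113 CPM (SD, n = 6 each) gave a myoD difference of 0.31, just over the bound. The 12-feeding controls were at 1446, 1241, 1338, 1335 and 1245 CPM. The nkx1-1 RNAi animals were at 1012 to 1659 CPM with a median of 1189 CPM, and 2 of the 7 lay above all of their controls.

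Values of dd_Smed_v4_2912_0_1 were close together within groups. It was at 230, 243 and 245 CPM in 10-feeding controls and at 286, 308 and 315 CPM after myoD RNAi, with coefficients of variation of 2.35% and 3.48%. Its 12-feeding controls were at 225, 226, 245, 232 and 226 CPM, and 6 of 7 nkx1-1 RNAi animals, at 247 to 274 CPM, lay above all 5 of them. The remaining animal was replicate 1, at 205 CPM. The nkx1-1 difference of this member was 0.147, just under the bound, and it passed the bound without that animal (0.195) and likewise without replicate 3 of the 12-feeding controls (0.170).

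**Figure D3:**
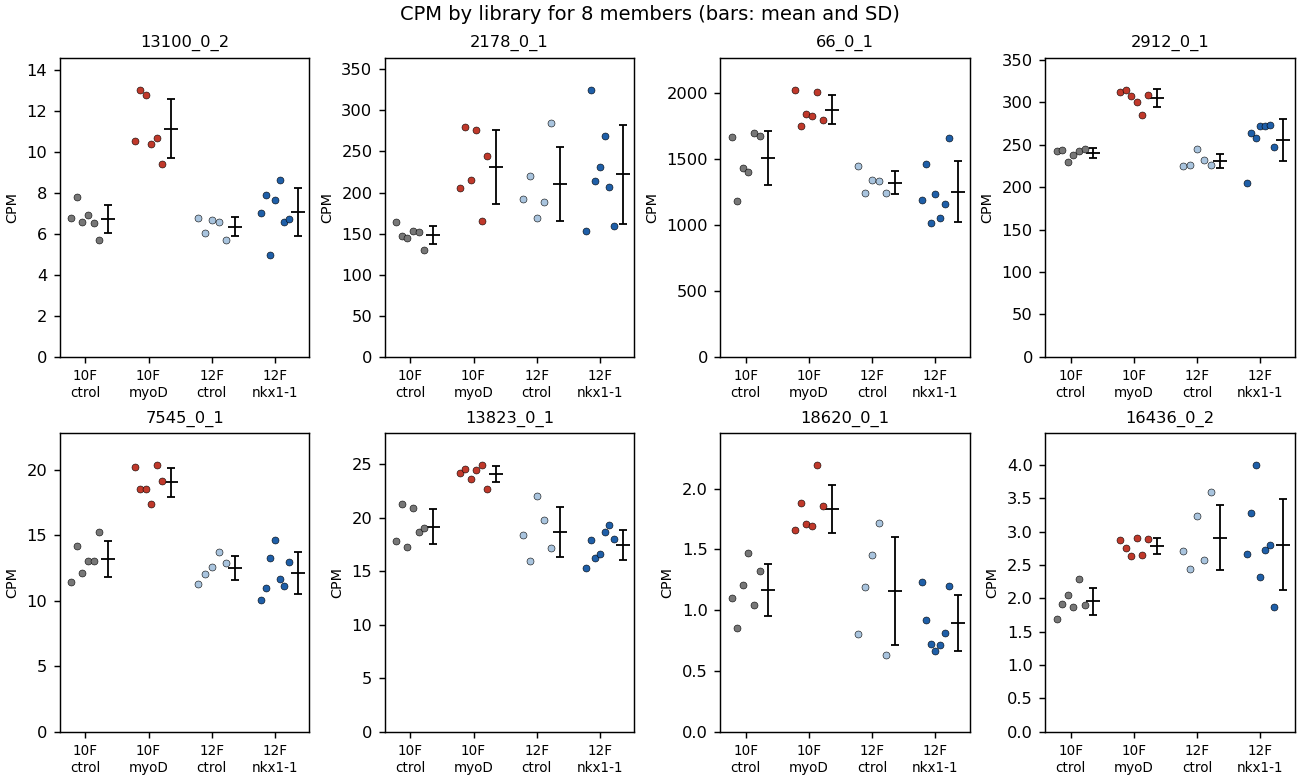
CPM in each library for 8 members (IDs without the prefix dd_Smed_v4_), with a point per animal and the mean and SD beside each group; all axes start at 0. The members differ in where the 12-feeding controls lie: below all myoD RNAi animals for dd_Smed_v4_13100_0_2, dd_Smed_v4_66_0_1, dd_Smed_v4_2912_0_1, dd_Smed_v4_7545_0_1 and dd_Smed_v4_13823_0_1, and reaching them in part or in full for dd_Smed_v4_2178_0_1, dd_Smed_v4_16436_0_2 and 1 control of dd_Smed_v4_18620_0_1.

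After nkx1-1 RNAi the members moved little, by the rule. The nkx1-1 differences ran from −0.26 to 0.15, with a median of 0.09, against 0.04 over all contigs of at least 1 CPM. They were below 0 for 10 members, from 0 to 0.1 for 7 and between 0.1 and the bound of 0.15 for 13. With edgeR 0 of 30 members were called after nkx1-1 RNAi, where 3.87% of 16598 contigs were called. That background of 643 contigs was itself unsteady. Leaving out controls 1, 2, 3, 4 and 5 of the longer schedule in turn gave 578, 325, 448, 214 and 391 contigs. Dropping the nkx1-1 animals numbered 4, 5, 6 and 7 in turn gave 412, 352, 332 and 391. Without animal 3 the count of contigs was also below 643. The count rose to 947 without animal 1 and to 755 without animal 2. It was 976 with limma voom, 1042 with DESeq2 and 1849 in a fit of all 24 libraries, with 0 members called each time. At an unadjusted p under 0.05 the count was 0 as well, and DESeq2 and limma voom each called 0, with 1 member under an unadjusted p of 0.05. No member had nkx1-1 RNAi animals all above or all below their controls, against 0.670% and 1.00% of all contigs of at least 1 CPM.

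The lowest nkx1-1 differences belonged to dd_Smed_v4_8016_0_1 (−0.26) and dd_Smed_v4_18620_0_1 (−0.25), the only members below −0.15. For dd_Smed_v4_8016_0_1 the 12-feeding controls were at 3.03, 2.50, 2.64, 2.11 and 2.54 CPM and the nkx1-1 RNAi animals at 1.04 to 2.37 CPM with a median of 2.32 CPM, overlapping only with the lowest control. Its 10-feeding controls stood at 1.77, 2.18 and 2.54 CPM and its myoD RNAi animals at 2.63, 2.85 and 4.17 CPM.

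The contig dd_Smed_v4_18620_0_1 rested on few reads, with 9 to 38 counts per library. It was at 0.851, 1.15 and 1.47 CPM in 10-feeding controls and at 1.66, 1.78 and 2.19 CPM after myoD RNAi. The 12-feeding controls were spread widely, at 0.803, 1.19, 1.45, 1.71 and 0.635 CPM, and the nkx1-1 RNAi animals, at 0.662 to 1.23 CPM, lay inside that spread. The next lowest were dd_Smed_v4_21173_0_1 (−0.12) and dd_Smed_v4_13823_0_1 (−0.10).

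Whether the effects of the treatments differed was tested for all contigs in a fit of 24 libraries. For the members this is a description, since the rule itself set the effects apart. All 30 had a smaller effect of nkx1-1 than of myoD in this fit, but only 3 were called, where 0.425% of 17159 contigs were called in either direction and 0.256% in this one. For the other 27 the fitted difference of effects ran from −1.08 to −0.22 on the log2 scale, with a median SE of 0.17 over the members. Missing the threshold does not show that myoD and nkx1-1 RNAi acted alike on these contigs, nor does membership show that they acted differently.

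The clearest of the 3 was dd_Smed_v4_7545_0_1, with a difference of effects of −0.61 ± 0.10 (SE). It was at 11.5, 13.1 and 15.3 CPM in 10-feeding controls and at 17.4, 18.9 and 20.4 CPM after myoD RNAi. The 12-feeding controls were at 11.3, 12.1, 12.6, 13.7 and 12.9 CPM and the nkx1-1 RNAi animals at 10.1 to 14.7 CPM around a median of 11.6 CPM. The controls of both schedules thus lay in a common range, which all myoD RNAi animals and no nkx1-1 RNAi animal exceeded.

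The contig dd_Smed_v4_13823_0_1 had a difference of effects of −0.47 ± 0.09 (SE). It was at 17.2, 18.9 and 21.3 CPM in 10-feeding controls and at 22.7, 24.3 and 24.9 CPM after myoD RNAi, whose coefficient of variation of 3.23% was the lowest of any member in that group. The 12-feeding controls were at 18.4, 16.0, 22.1, 19.8 and 17.2 CPM, replicate 3 highest, and the nkx1-1 RNAi animals at 15.3 to 19.3 CPM.

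The contig dd_Smed_v4_5823_0_1 had a difference of effects of −0.38 ± 0.09 (SE). It was at 63.5, 66.5 and 74.4 CPM in 10-feeding controls and at 80.2, 84.8 and 89.3 CPM after myoD RNAi, against 61.5, 59.4, 67.8, 60.1 and 59.8 CPM in 12-feeding controls. The nkx1-1 RNAi animals were at 58.7 to 68.9 CPM apart from replicate 1 at 44.1 CPM. Next in order came dd_Smed_v4_5099_0_1, at −0.49 ± 0.12 (SE), which was not called. Over 30 other settings and left-out libraries dd_Smed_v4_7545_0_1 was called in 30, dd_Smed_v4_13823_0_1 in 29, dd_Smed_v4_5823_0_1 in 14 and dd_Smed_v4_5099_0_1 in 11. The number of members called was 6 without nkx1-1 RNAi replicate 1, 5 without nkx1-1 RNAi replicate 2 and 5 without myoD RNAi replicate 5. It fell to 2 without any 1 of 12-feeding controls 3, 4 and 5 or 10-feeding controls 1, 2, 3, 4 and 5. The same held without nkx1-1 RNAi replicate 7 or myoD RNAi replicates 1, 3, 4 or 6. With any other library left out it was 3 or 4.

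Which members met the rule depended on single libraries of the longer schedule, and not only on those that stood apart. Leaving out nkx1-1 RNAi replicate 1 lost 10 of the 30 members. Without 12-feeding control replicate 1 the loss was 9, and without control replicate 3 it was 6. Any other library of that schedule left out cost 0 to 4 members. Replicate 1 was the lowest nkx1-1 RNAi animal for 13 of the 30 members and the highest for 2. The matching shares of all contigs were not computed. Its median log2 ratio to the 10-feeding control mean over all contigs of at least 1 CPM, −0.16, was also the lowest among nkx1-1 RNAi animals. Without replicate 1 the median nkx1-1 difference of the members was 0.13, against 0.06 over all contigs of at least 1 CPM, and 10 of the 30 were at or above the bound. Among them were dd_Smed_v4_2912_0_1 (0.195), dd_Smed_v4_5099_0_1 (0.185) and dd_Smed_v4_2178_0_1 (0.1503). Without this library and 12-feeding control replicate 3 together, 15 members were at or above the bound, and dd_Smed_v4_3251_0_1 moved from 0.08 to 0.29. The 3 members with a called difference of effects stayed below 0.1 without both libraries.

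Between the control groups of the schedules the members went both ways. That every member was above its 10-feeding controls after myoD RNAi was required by the rule and is no contrast to this. The log2 ratio of the 12-feeding to the 10-feeding control mean was above 0 for 13 members and below 0 for 17, with a median of −0.05, the range running from −0.66 to 0.50. Over all contigs of at least 1 CPM the median was −0.04 and 43.1% were above 0. With edgeR 6 members were called, 4 higher and 2 lower in 12-feeding controls, where 35.1% of 16262 contigs were called, 18.2% higher and 16.8% lower. All 12-feeding controls lay above all 10-feeding controls for 3 members and below them for 1, against 7.14% and 9.25% of contigs of at least 1 CPM. This comparison shares both control groups with the contrasts that chose the members.

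The 4 members called higher in 12-feeding controls were dd_Smed_v4_2178_0_1, dd_Smed_v4_16436_0_2, dd_Smed_v4_8568_1_1 and dd_Smed_v4_10493_0_1. The call of dd_Smed_v4_8568_1_1 was close to the threshold, with an edgeR adjusted p of 0.0477. DESeq2 called 3 members higher and limma voom 4. For dd_Smed_v4_16436_0_2 the 10-feeding controls were at 1.69, 1.91 and 2.30 CPM and the myoD RNAi animals at 2.63, 2.81 and 2.90 CPM. Controls of the longer schedule were at 2.72, 2.44, 3.24, 2.57 and 3.60 CPM, which edgeR put 0.60 ± 0.14 (log2, SE) above the 10-feeding controls with an adjusted p of 0.00455. Their mean of 2.91 ± 0.490 CPM (SD, n = 5) was above the myoD RNAi mean of 2.79 ± 0.123 CPM (SD, n = 6). This was the sole such case among the members, against 45.4% of all contigs of at least 1 CPM. The rule chose members with high myoD RNAi means, so nothing can be read from that count. The nkx1-1 RNAi animals lay at 1.86 to 4.00 CPM.

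For dd_Smed_v4_2178_0_1 edgeR gave 0.55 ± 0.12 (log2, SE) with an adjusted p of 0.00192. The level of dd_Smed_v4_21173_0_1 was also similar in 12-feeding controls and myoD RNAi animals, with means of 1.26 ± 0.330 CPM (SD, n = 5) and 1.30 ± 0.140 CPM (SD, n = 6), but it rested on 10 to 27 counts per library and was not called between the controls (edgeR adjusted p = 0.0725). In all, 13 members had at least 1 of the 5 control animals of the longer schedule at or above the lowest myoD RNAi animal. For 14 members every animal of the longer schedule, control or nkx1-1 RNAi, lay below the lowest myoD RNAi animal. The shares of all contigs beside these counts were not computed. The rule favours high myoD RNAi libraries, so nothing can be read from the counts.

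Those called lower in 12-feeding controls were dd_Smed_v4_3251_0_1 and dd_Smed_v4_9788_0_1. For dd_Smed_v4_3251_0_1 the 10-feeding controls were at 124, 142 and 162 CPM and the myoD RNAi animals at 169, 182 and 186 CPM. The 12-feeding controls stood at 78.5, 82.0, 138, 84.0 and 70.1 CPM, with only replicate 3 inside the range of the other schedule, and the nkx1-1 RNAi animals at 56.2 to 122 CPM. Between the controls edgeR gave −0.63 ± 0.14 (log2, SE) with an adjusted p of 0.00266, and without that replicate the log2 ratio of the means went from −0.66 to −0.86.

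For dd_Smed_v4_9788_0_1 edgeR gave −0.54 ± 0.10 (log2, SE) with an adjusted p of 0.000583, and the 12-feeding controls stood at 4.57, 4.57, 4.30, 3.66 and 3.60 CPM. Its 10-feeding controls were at 5.82, 6.04 and 6.75 CPM and its myoD RNAi animals at 6.77, 7.23 and 12.1 CPM. The high end was replicate 6 alone, the others reached 7.75 CPM, and the lowest RNAi animal exceeded the highest control by 0.199%, the least of all members.

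**Figure D4:**
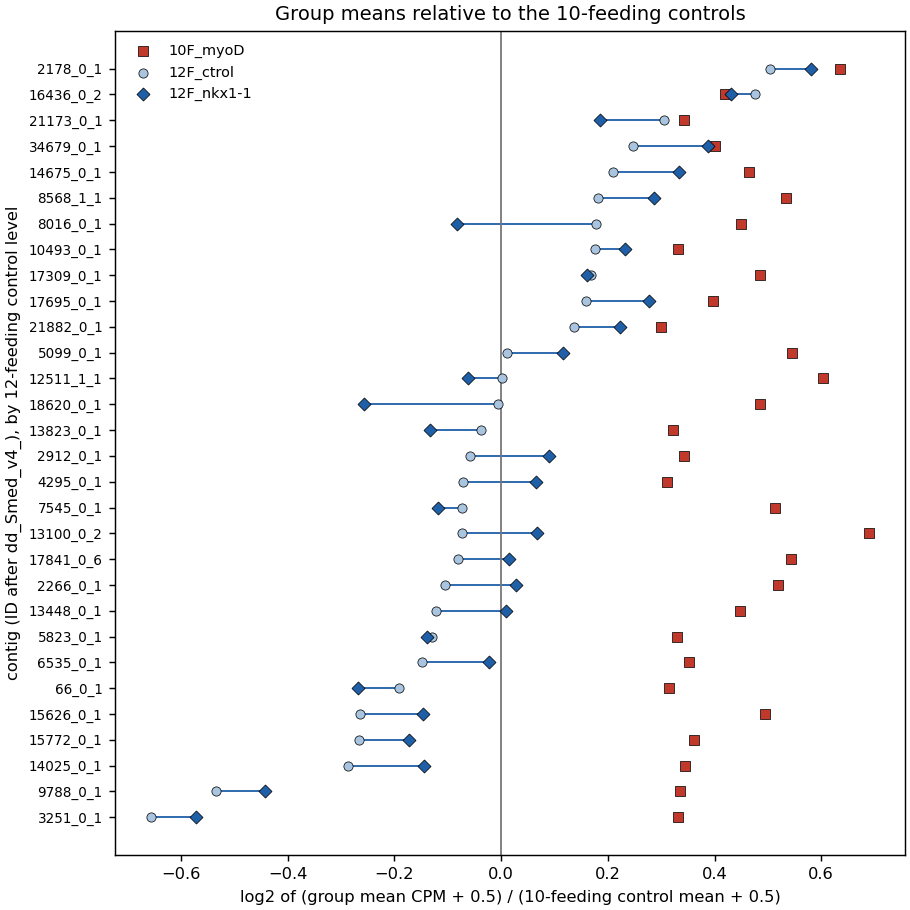
For each member (rows, ordered by the 12-feeding control level) the symbols give the log2 ratio of a group mean to the 10-feeding control mean, with 0.5 CPM added, for myoD RNAi, 12-feeding controls and nkx1-1 RNAi. The 12-feeding control symbols run from −0.66 for dd_Smed_v4_3251_0_1 to 0.50 for dd_Smed_v4_2178_0_1. The myoD RNAi symbols lie between 0.30 and 0.69 in all rows, above 0 as the rule requires.

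A single member shared its component number with another contig of the table, and the contigs of this component did not move together. The member dd_Smed_v4_12511_1_1 was at 2.06, 2.45 and 3.27 CPM in 10-feeding controls and at 3.38 to 5.40 CPM around a median of 3.81 CPM after myoD RNAi, a myoD difference of 0.60. The other contig, dd_Smed_v4_12511_0_1, was at 6.17, 6.72 and 7.66 CPM in controls and at 4.68, 6.10 and 6.40 CPM after myoD RNAi, a difference of −0.21 with overlapping groups. In the fit over all contigs it was at −0.22 ± 0.09 (log2, SE) and was not called, with an edgeR adjusted p of 0.187. Their summed level was 9.38 ± 0.603 CPM in controls and 9.97 ± 1.15 CPM after myoD RNAi (SD, n = 6 each), with ranges of 8.46 to 10.1 and 8.40 to 11.4 CPM that overlapped. Reads of contigs with similar sequence can be split between them, and whether that touched these counts was not tested.

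The nkx1-1 value of dd_Smed_v4_12511_1_1 hung on a library that stood apart. Replicate 1 was at 5.93 CPM, above every other library of the series, and the other 6 nkx1-1 RNAi animals were at 1.53 to 2.73 CPM. With all 7 animals the nkx1-1 difference was −0.06, and without replicate 1 it was −0.38. The 12-feeding controls were uneven as well, at 1.54, 2.91, 3.44, 1.26 and 3.67 CPM.

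**Figure D5:**
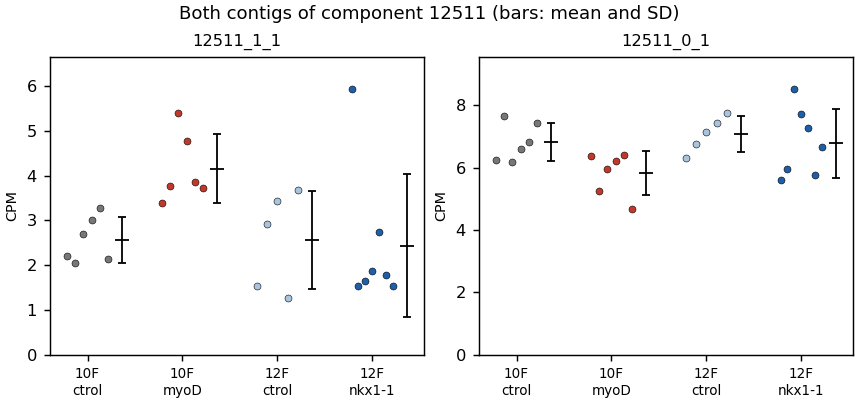
CPM in each library for the member dd_Smed_v4_12511_1_1 (left) and the other contig of its component, dd_Smed_v4_12511_0_1 (right), with mean and SD beside each group and axes from 0. The member was higher in all 6 myoD RNAi animals than in their controls, the other contig had overlapping groups with a lower mean, and the highest point on the left is nkx1-1 RNAi replicate 1 at 5.93 CPM.

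Within groups the members varied somewhat more than the average contig. The median coefficient of variation over the members was 10.3% in 10-feeding controls, 12.5% in 12-feeding controls and 17.3% after nkx1-1 RNAi. Over all contigs of at least 1 CPM these medians were 8.59%, 11.2% and 11.9%, but those contigs were more abundant. The members did not form a tight group among animals. After group means were removed, the correlation between members across the 24 libraries had a median of 0.07 over 435 pairs, against 0.06 between members and all contigs of at least 1 CPM, given as a description. The closest pairs were among dd_Smed_v4_2912_0_1, dd_Smed_v4_5823_0_1 and dd_Smed_v4_5099_0_1, at 0.76 to 0.84, and without nkx1-1 RNAi replicate 1, which was lowest for all 3, these fell to 0.29 to 0.46.

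The bounds cut through a continuum. Just inside the myoD bound lay dd_Smed_v4_21882_0_1 at 0.301 and dd_Smed_v4_4295_0_1 at 0.311, and just outside it dd_Smed_v4_7048_0_1 at 0.299 and dd_Smed_v4_1137_0_1 at 0.295. Just inside the nkx1-1 bound were dd_Smed_v4_2912_0_1 at 0.147 and dd_Smed_v4_14025_0_1 at 0.142, and just outside dd_Smed_v4_14955_0_1 at 0.1503 and dd_Smed_v4_5904_0_1 at 0.1505. At the abundance floor the lowest member, dd_Smed_v4_21173_0_1, stood at 1.14 CPM, and the nearest contig left out by the floor, dd_Smed_v4_30227_0_1, at 0.816 CPM.

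The contigs chosen changed with the libraries. Leaving out 1 library at a time gave 24 to 54 contigs, of which 20 to 30 were among the 30 members, and the extremes of 54 and 50 came without 10-feeding control replicate 4 and without myoD RNAi replicate 5. In all 24 such settings 8 members were chosen each time: dd_Smed_v4_12511_1_1, dd_Smed_v4_7545_0_1, dd_Smed_v4_18620_0_1, dd_Smed_v4_17309_0_1, dd_Smed_v4_8016_0_1, dd_Smed_v4_16436_0_2, dd_Smed_v4_15772_0_1 and dd_Smed_v4_5823_0_1. Leaving out a library cannot break the no-overlap condition for a member and can only ease it for other contigs. A member could thus drop out only through the bounds or the floor. Without both libraries that stood apart the rule gave 18 contigs, 15 of them members.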

How the data were processed

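The authors deposited read counts per contig for 24 libraries, without normalization, per the file headers. The submitters' processing notes name Bowtie 1.1.1, cutadapt 1.8, DESeq, CASAVA and SAMtools, with no role or order, and per the labels' protocols libraries came from a stranded kit. The sources used here give no counting settings. The authors also deposited a fold change (a ratio of normalised means) and an adjusted p-value for each RNAi group against its control. All counts of a column formed its total, and CPM are counts scaled to a total of 1000000. Tests used edgeR 4.0.16 in R 4.3.3 (default filterByExpr, TMM, quasi-likelihood F test, two-sided, Benjamini-Hochberg over all contigs tested), each pair fitted alone and the difference of effects on all libraries. The SE is the log2 fold change divided by the square root of F. Fits were tested on simulated data. DESeq2 1.42.0, limma 3.58.1 (voom with quality weights), other scalings, bounds, filters, a replicate block and left-out libraries were alternatives. Within groups no pair of libraries was the same within sampling noise (chi-square per degree of freedom 4.18 to 103). Named contigs were the 4 with the largest myoD difference, highest level, lowest nkx1-1 difference and smallest adjusted p for the difference of effects, those highest or lowest in 12-feeding controls, those at the bounds and those sharing a component. Others named with a count were chosen after their values were seen. Members, lists and alternatives were chosen with earlier results of these data known.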

Additional observations from a re-analysis of the deposited data

Results flagged for a closer look

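Gaps within groups were looked for in 124 sets of values (30 members and the median over them, in 4 groups), and 14 sets held an animal far from the others of its group, and about 1 in 20 sets (6.2 of them) would be marked by chance. The sets share libraries and are not independent. In nkx1-1 RNAi replicate 1 the median over the members was −0.22 on the log2 scale relative to the 10-feeding controls, against 0.02 to 0.11 in the other 6 animals. Over all contigs of at least 1 CPM this median was also low in replicate 1, at −0.16, against −0.06 to 0.09 in the other 6. The low value was therefore not particular to the members. The same animal was low for dd_Smed_v4_5099_0_1 (37.2 CPM against 55.6 to 64.5), dd_Smed_v4_2912_0_1 (205 CPM against 247 to 274), dd_Smed_v4_5823_0_1 (44.1 CPM against 58.7 to 68.9) and dd_Smed_v4_14675_0_1 (1.30 CPM against 2.36 to 2.81). It was high for dd_Smed_v4_12511_1_1 (5.93 CPM against 1.53 to 2.73).

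The control of the longer schedule that stood apart, replicate 3, was high for dd_Smed_v4_3251_0_1 (138 CPM against 70.1 to 84.0) and dd_Smed_v4_5823_0_1 (67.8 CPM against 59.4 to 61.5). Among myoD RNAi animals, replicate 6 was high for dd_Smed_v4_9788_0_1 (12.1 CPM against 6.77 to 7.75) and low for dd_Smed_v4_17309_0_1 (2.08 CPM against 2.60 to 2.87), and replicate 1 was high for dd_Smed_v4_14025_0_1 (3.51 CPM against 2.96 to 3.14). Among 10-feeding controls, replicate 6 was low for dd_Smed_v4_17695_0_1 (2.65 CPM against 2.92 to 3.09) and high for dd_Smed_v4_15772_0_1 (5.29 CPM against 4.18 to 4.60), and replicate 5 was low for dd_Smed_v4_17841_0_6 (0.766 CPM against 1.42 to 1.61).

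Different effects under the 2 treatments were called for dd_Smed_v4_7545_0_1 (−0.61 on the log2 scale), dd_Smed_v4_13823_0_1 (−0.47) and dd_Smed_v4_5823_0_1 (−0.38), nkx1-1 effect minus myoD effect. The rule that chose the members used both contrasts, so these values describe the contigs and lend no support of their own.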

How the results depend on the processing

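The list of 30 contigs depended on the rule's settings. Scaling CPM by TMM factors gave 56 contigs and by DESeq2 size factors 50, with 25 of the 30 members in each. A floor of 5 CPM gave 15, no floor 58, a myoD bound of 0.5 gave 8, an nkx1-1 bound of 0 gave 10, and allowing overlap 226. Group medians gave 25 contigs, 16 of them members. Without both libraries that stood apart there were 18, and without 1 library 24 to 54. Of the members, 20 to 26 were called after myoD RNAi and 0 after nkx1-1 RNAi under every alternative run, with 21 to 26 and 0 when a library was left out. Between the control groups 5 to 7 were called, and with a library left out also 5 to 7. The difference of effects was called for 7 members with DESeq2, 5 with voom and 2 to 6 with 1 library left out. The cause of these shifts was not tested. The median ratio between the controls of the members stayed between −0.08 and −0.01. No called value of a named contig changed sign, but calls of named contigs were lost under some alternatives. A call was lost 23 times after myoD RNAi and 17 times for the difference of effects, where 19 were gained. Over 18 other settings and left-out libraries dd_Smed_v4_8016_0_1 was called after myoD RNAi in 10 and dd_Smed_v4_14025_0_1 in 6. With replicate number as a block, 23 members were called after myoD RNAi, 0 after nkx1-1 RNAi, 5 between controls and 2 for the difference of effects. Animals with the same number correlated at −0.20 to 0.17 in the myoD pair, −0.15 to 0.02 in the nkx1-1 pair and −0.08 to 0.22 between controls. Values above 0.1 for every pair, the criterion for pairing, were found in no comparison, and own number gave the highest correlation for 1 of 6, 1 of 5 and 3 of 5 numbers. Over all contigs the block left 12 nkx1-1 calls of 643, on replicates 1 to 5. Members of 1 to 5 CPM rest on as few as 9 counts in a library.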
